A study of Mus musculus with 24 samples.

Results

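The genes examined here encode enzymes and regulators of cholesterol and fatty acid synthesis, 29 in number, chosen by name for the step that each one catalyses or controls. The choice was made with earlier results of these data known. They were read among 23234 genes in each of the tables used, and all 29 were expressed highly enough to be tested. The libraries were RNA-seq libraries of primary B cells taken fresh from the spleen of C57BL/6 mice, with 3 libraries in each of 4 groups. The groups were Tet2/Tet3-deficient CD93-positive cells, control CD93-positive cells, Tet2/Tet3-deficient CD93-negative cells and control CD93-negative cells. The deficient libraries are called DKO and the control libraries CTL. Tet2 and Tet3 encode enzymes that oxidise methylated cytosine in DNA, and CD93 marks immature B cells in the spleen and is found on plasma cells too. The comparisons ask how the levels of these genes differ between DKO and CTL cells of each sort. The labels do not say how or in which cells the genes were removed, at what age the mice were taken, or whether a replicate was 1 animal or a pool.

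Cholesterol is built from acetyl-CoA through mevalonate, isoprenoid diphosphates, squalene and lanosterol, and intermediates of this route are also drawn off for dolichol, ubiquinone and the lipid anchors of proteins. Fatty acids are built from acetyl-CoA by carboxylation, chain synthesis, elongation and desaturation. Both routes are controlled by the SREBP transcription factors, membrane proteins of the endoplasmic reticulum that are carried to the Golgi and cleaved when sterols are low, and that the protein Insig1 holds back when sterols are high. Activated lymphocytes use both routes to make membrane.

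Promoters of the pathway are known for boxes that NF-Y binds beside elements that SREBP binds. Windows of 300 bases, 250 before to 50 after a start site, were available for 22 of the 29 genes, from RefSeq on build GRCm38.p6, which is not the build of the expression values. Those of Insig1, Cyp51, Idi1 and Ebp are shown because these genes are among the main results below, and that of Hmgcs1 because it alone held the sterol element searched for. Capitals mark CCAAT, the NF-Y box, read on either strand and so also as ATTGG, and in Hmgcs1 the sterol element TCACCCCAC. Insig1 lies at chr5:28071162-28071461 on the plus strand, Cyp51 at chr5:4104648-4104947 on the minus strand, Idi1 at chr13:8885356-8885655 on the plus strand, Ebp at chrX:8193463-8193762 on the minus strand and Hmgcs1 at chr13:119690101-119690400 on the plus strand, each read 5′ to 3′ along its gene.
Insig1: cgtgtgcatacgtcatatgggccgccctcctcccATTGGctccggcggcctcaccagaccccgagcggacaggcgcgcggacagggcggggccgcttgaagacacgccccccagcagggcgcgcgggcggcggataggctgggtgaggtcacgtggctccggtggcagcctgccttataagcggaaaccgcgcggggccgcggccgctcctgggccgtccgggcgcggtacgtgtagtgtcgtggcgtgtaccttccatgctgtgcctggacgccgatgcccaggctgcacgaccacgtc
Cyp51: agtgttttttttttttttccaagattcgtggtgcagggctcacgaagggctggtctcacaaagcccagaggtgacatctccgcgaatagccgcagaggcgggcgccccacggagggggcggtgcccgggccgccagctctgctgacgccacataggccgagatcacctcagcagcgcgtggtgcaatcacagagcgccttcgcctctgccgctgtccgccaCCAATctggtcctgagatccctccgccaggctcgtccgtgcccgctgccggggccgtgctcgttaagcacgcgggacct
Idi1: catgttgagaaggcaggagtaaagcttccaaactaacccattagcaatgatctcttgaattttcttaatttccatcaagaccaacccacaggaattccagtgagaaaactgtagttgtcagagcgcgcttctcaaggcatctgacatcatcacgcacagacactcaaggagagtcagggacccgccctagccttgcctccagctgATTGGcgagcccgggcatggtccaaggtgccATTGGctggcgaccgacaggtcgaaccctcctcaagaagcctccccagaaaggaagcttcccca
Ebp: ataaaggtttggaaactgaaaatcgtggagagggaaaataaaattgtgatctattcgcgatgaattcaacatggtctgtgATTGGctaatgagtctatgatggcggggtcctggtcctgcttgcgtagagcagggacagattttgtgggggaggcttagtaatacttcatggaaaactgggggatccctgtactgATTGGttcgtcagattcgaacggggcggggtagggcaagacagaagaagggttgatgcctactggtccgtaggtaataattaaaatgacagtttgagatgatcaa
Hmgcs1: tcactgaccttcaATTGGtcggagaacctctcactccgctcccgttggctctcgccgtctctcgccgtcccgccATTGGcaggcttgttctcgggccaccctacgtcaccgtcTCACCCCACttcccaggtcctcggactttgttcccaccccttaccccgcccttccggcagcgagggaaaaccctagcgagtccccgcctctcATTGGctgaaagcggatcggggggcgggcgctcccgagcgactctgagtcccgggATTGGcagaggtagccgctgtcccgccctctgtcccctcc

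The 22 genes had 27 windows. CCAAT stood in 19 of the 27, 70.4%, against 37.4% of all 32851 windows of the table. GGGCGG, the core of an Sp1 box, also stood in 19 windows, against 35.7% of all windows. CACGTG, an E-box, stood in 4 windows, 14.8%, against 7.15%. TCACNCCAC, the sterol element, stood in 1, against 1.24%. Counted by gene, 18 of the 22 held CCAAT, 81.8%, against 41.1% of all genes. No motif searched is contained in another, both strands were read, and a match is a description of these letters only. Insig1 held 1 CCAAT, 3 GGGCGG and 1 CACGTG, and Hmgcs1 held 4 CCAAT, 3 GGGCGG and the sterol element. Fdps, Fdft1, Sqle, Scd1, Scd2, Fads1 and Stard4 had no window.

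Levels are given as FPKM, in which fragments are divided by the length of the transcript and by the total of the library. Each library was then multiplied by 1 factor that brings the upper quartile of the tested genes to a common value within its table. The factor was 1.67 for DKO replicate 3 of the CD93-positive cells, which had a sum of 309359 FPKM against 523898 to 597968 in the other 5, and 0.855 to 0.996 for those 5. In CD93-negative cells the factors were 0.904 to 1.26. FPKM carries no counts, so the depth of a library is unknown. The sort markers and B cell markers were present in all 12 libraries, with Cd93 at 38.7 FPKM or more in CD93-positive libraries and at 4.89 FPKM or less in CD93-negative ones. Tet3 was at 8.56, 6.88 and 6.41 FPKM in DKO against 10.998, 12.96 and 12.1 FPKM in CTL CD93-positive libraries, and at 14.8, 14.5 and 13.4 against 18.6, 19.6 and 19.6 FPKM in CD93-negative ones. Tet2 was at 3.07, 2.06 and 3.01 against 2.88, 3.45 and 2.65 FPKM and at 9.37, 7.58 and 8.49 against 8.02, 7.89 and 9.04 FPKM. These values include exons that may lie outside the deleted part and so check no label. All 3 DKO CD93-positive libraries and CTL replicate 3 had Xist, a transcript that female cells make, at 20.1 to 50.8 FPKM. CTL replicates 1 and 2 had Xist under 1 FPKM and the Y-linked gene Ddx3y at 10.8 and 10.6 FPKM. All 6 CD93-negative libraries had Ddx3y at 22.5 FPKM or more. Sex and genotype are therefore partly confounded in CD93-positive cells.

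In CD93-positive B cells, after rescaling, some genes of cholesterol synthesis were higher in DKO than in CTL libraries, and the desaturase gene Scd1 was lower. The DKO means of Fdps, Sqle, Cyp51, Idi1 and Insig1 were between 2.101 times (Idi1) and 2.47 times (Cyp51) the CTL means. Nsdhl, Ebp and Acat2 rose by less. Scd1 was at 0.556 of its CTL level and Scd2 at 0.8201. By limma with Benjamini-Hochberg adjustment over 11250 genes at 0.05, 8 of the 29 genes were higher, 27.6%, where 11.4% of all genes tested were called higher. The genes called lower were 2 of 29, 6.90%, where 9.34% of all genes were. The DKO and CTL libraries did not overlap, with DKO higher, for 15 of the 29 genes, against 20.9% of all genes, and with DKO lower for 3, against 22.0%. The median log2 change was 0.24 over the 29 genes and -0.01 over all genes tested, and 25 of the 29 were above 0, against 48.7% of all genes. Log2 changes are DKO minus CTL on the scale log2(rescaled FPKM + 1), which understates changes of low genes.

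These calls depended on the scaling, which was chosen with earlier results of these data known. With FPKM as the authors scaled them, 0 of the 29 genes were called higher and 0 lower by limma, with 6 at an unadjusted p under 0.05, while 1.67% and 1.54% of all genes were called. The median log2 change was then 0.03 over the 29 genes and -0.22 over all genes. With rescaling, leaving out any single library brought the count of all genes called higher from 1280 to between 579 and 1195. Without DKO replicate 3 and with rescaling, 8 of the 29 were higher and 1 was lower, where 648 of all 11107 genes tested were lower. With sex as a covariate 5 were higher and 1 was lower, where 398 and 172 of all 11250 genes tested were. Of the CTL libraries only replicate 3 had the sex of the DKO libraries. The change from that fit, here and below, is thus the DKO mean minus CTL replicate 3 alone. A call kept or lost with that covariate rests on this 1 CTL library, with the spread taken from the other libraries. Among the 4 libraries with high Xist, 3 DKO and 1 CTL, a fit that assumes the lone CTL library to vary like the others called 1, Fdps, higher. Without DKO replicate 1 the count of higher genes was 5 of the 29, where 728 of all 11057 genes tested were higher. The count of lower genes was 1 of the 29 without DKO replicate 2, CTL replicate 1 or CTL replicate 2, each time through the loss of Scd2. Of all genes tested, 421 of 11062, 386 of 11093 and 283 of 11073 were then lower, in that order. The labels do not say that replicates are separate animals, so these p-values measure only the spread between libraries.

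**Figure D1:**
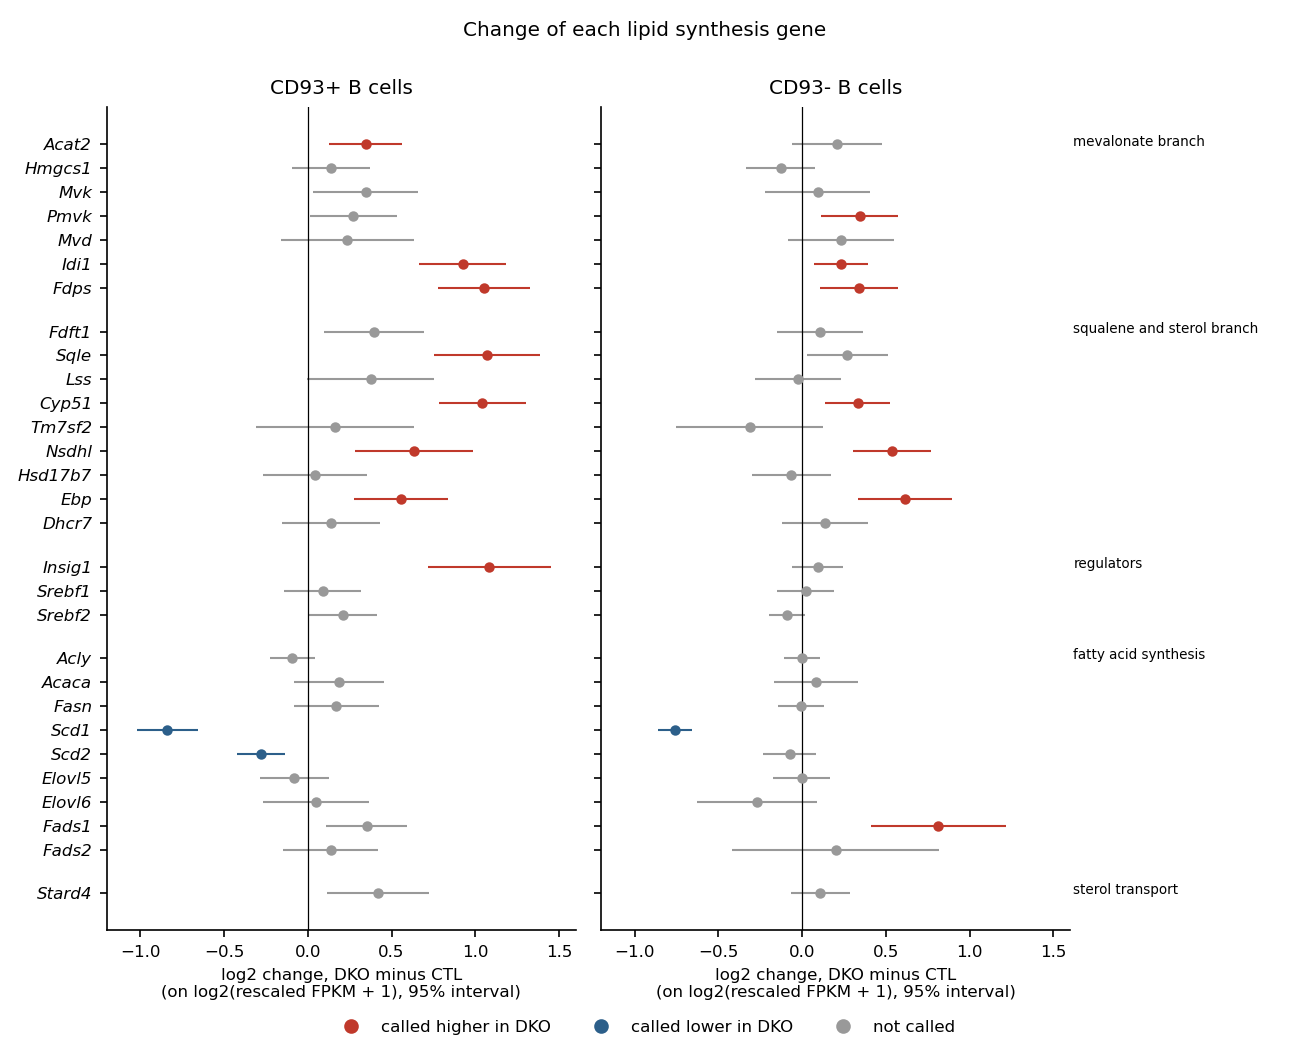
Log2 change of each of the 29 genes, DKO minus CTL, on the scale log2(rescaled FPKM + 1), in CD93-positive (left) and CD93-negative (right) B cells. Points are estimates from 3 libraries a group and lines are 95% intervals. Of the genes called higher, Insig1 stands farthest right in CD93-positive cells at 1.08 and Fads1 in CD93-negative cells at 0.81, and Scd1 stands farthest left in both, at -0.84 and -0.76.

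The mevalonate branch of CD93-positive cells had 3 of 7 genes higher and 0 lower, with a median log2 change of 0.34. Fdps encodes farnesyl diphosphate synthase, whose product feeds both sterols and protein prenylation. It stood at 31.5, 30.2 and 34.8 FPKM in the DKO libraries and at 16.6, 12.7 and 15.9 FPKM in the CTL libraries. The groups were far apart, and the lowest DKO library was above the highest CTL library by more than the range of either group. Its log2 change was 1.05 (SE 0.11, limma adjusted p = 0.00286), and 3.16% of all genes tested changed by more in either direction. Idi1, the isomerase of the isoprenoid units, stood at 8.56, 9.06 and 9.29 FPKM in DKO and at 4.801, 4.34 and 3.67 FPKM in CTL libraries. Here too the gap between the groups was wider than the range within either. Its log2 change was 0.92 (SE 0.11, limma adjusted p = 0.00359).

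Acat2, a thiolase of the first step, was at 11.6, 12.2 and 10.4 FPKM in DKO and 8.57, 9.32 and 8.39 FPKM in CTL libraries (log2 change 0.34, limma adjusted p = 0.0409). Its groups were close but did not overlap, and the call was lost without any single library other than DKO replicate 3 (adjusted p = 0.0812 to 0.117 without DKO replicate 1 or 2 or CTL replicate 1, 2 or 3). The other genes of the branch were not called. Mvk, mevalonate kinase, averaged 6.75 ± 0.855 in DKO and 5.11 ± 0.752 FPKM in CTL libraries (SD, n = 3 each), with an adjusted p of 0.1096. Pmvk, phosphomevalonate kinase, averaged 16.5 ± 2.23 and 13.5 ± 0.805 FPKM in DKO and CTL, and Hmgcs1, the HMG-CoA synthase, 4.78 ± 0.196 and 4.25 ± 0.323 FPKM. In these 3 genes the groups did not overlap and DKO was the higher. Mvd, the decarboxylase, overlapped between DKO, 5.87, 5.39 and 7.57 FPKM, and CTL, 5.598, 4.08 and 5.86 FPKM.

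From squalene to cholesterol, 4 of 9 genes were higher in DKO CD93-positive cells and 0 lower, with a median log2 change of 0.39. Sqle, squalene epoxidase, is a rate-limiting enzyme of the route. It was at 8.602, 7.25 and 6.93 FPKM in DKO and at 3.64, 2.65 and 3.001 FPKM in CTL libraries. Cyp51, the demethylase of lanosterol, was at 5.85, 6.53 and 6.83 FPKM in DKO and at 2.44, 2.87 and 2.47 FPKM in CTL libraries. For both genes the DKO libraries lay well above the CTL libraries, without overlap. The log2 change was 1.07 (SE 0.13, limma adjusted p = 0.00411) for Sqle and 1.04 (SE 0.11, limma adjusted p = 0.00238) for Cyp51. Genes with a larger change in either direction were 3.03% and 3.25% of all genes tested.

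Nsdhl and Ebp both lie on the X chromosome. Nsdhl, a dehydrogenase in the removal of methyl groups from sterols, was at 7.16, 5.62 and 8.46 FPKM in DKO and 4.25, 3.803 and 4.42 FPKM in CTL libraries (log2 change 0.63, limma adjusted p = 0.0288). DKO replicate 2 stood nearest to the CTL libraries and the groups did not overlap. Ebp, a sterol isomerase, was at 27.6, 24.8 and 24.6 FPKM in DKO and 14.3, 19.2 and 18.1 FPKM in CTL libraries (log2 change 0.56, limma adjusted p = 0.02204). Its lowest CTL value was in replicate 1, and no CTL library reached a DKO library. With sex as a covariate the log2 change was 0.56 for Nsdhl and 0.48 for Ebp, and neither passed (limma adjusted p = 0.190 and 0.158). Nsdhl also lost its call without DKO replicate 1 or 3 or CTL replicate 1 or 2 (adjusted p = 0.0585 to 0.0983), and Ebp without DKO replicate 1 or 2 (adjusted p = 0.0648 and 0.0618).

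The remaining 5 sterol genes were not called in CD93-positive cells. Fdft1, squalene synthase and so the first step committed to sterols, was at 8.96, 8.41 and 6.67 FPKM in DKO and 6.17, 5.32 and 5.97 FPKM in CTL libraries, without overlap (log2 change 0.39, limma adjusted p = 0.0692). Without DKO replicate 3 it passed, with a log2 change of 0.51 and an adjusted p of 0.0348. Lss, which closes squalene epoxide into lanosterol, averaged 2.78 ± 0.575 FPKM in DKO and 1.903 ± 0.296 FPKM in CTL libraries, with overlap of 1 DKO library. Dhcr7, the reductase of the last step, averaged 7.39 ± 0.557 and 6.65 ± 1.01 FPKM in DKO and CTL. Tm7sf2, a sterol reductase, averaged 1.96 ± 0.606 and 1.63 ± 0.4101 FPKM, and Hsd17b7, a ketosteroid reductase, 1.79 ± 0.246 and 1.701 ± 0.163 FPKM. Groups overlapped in all 3 of these genes.

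**Figure D2:**
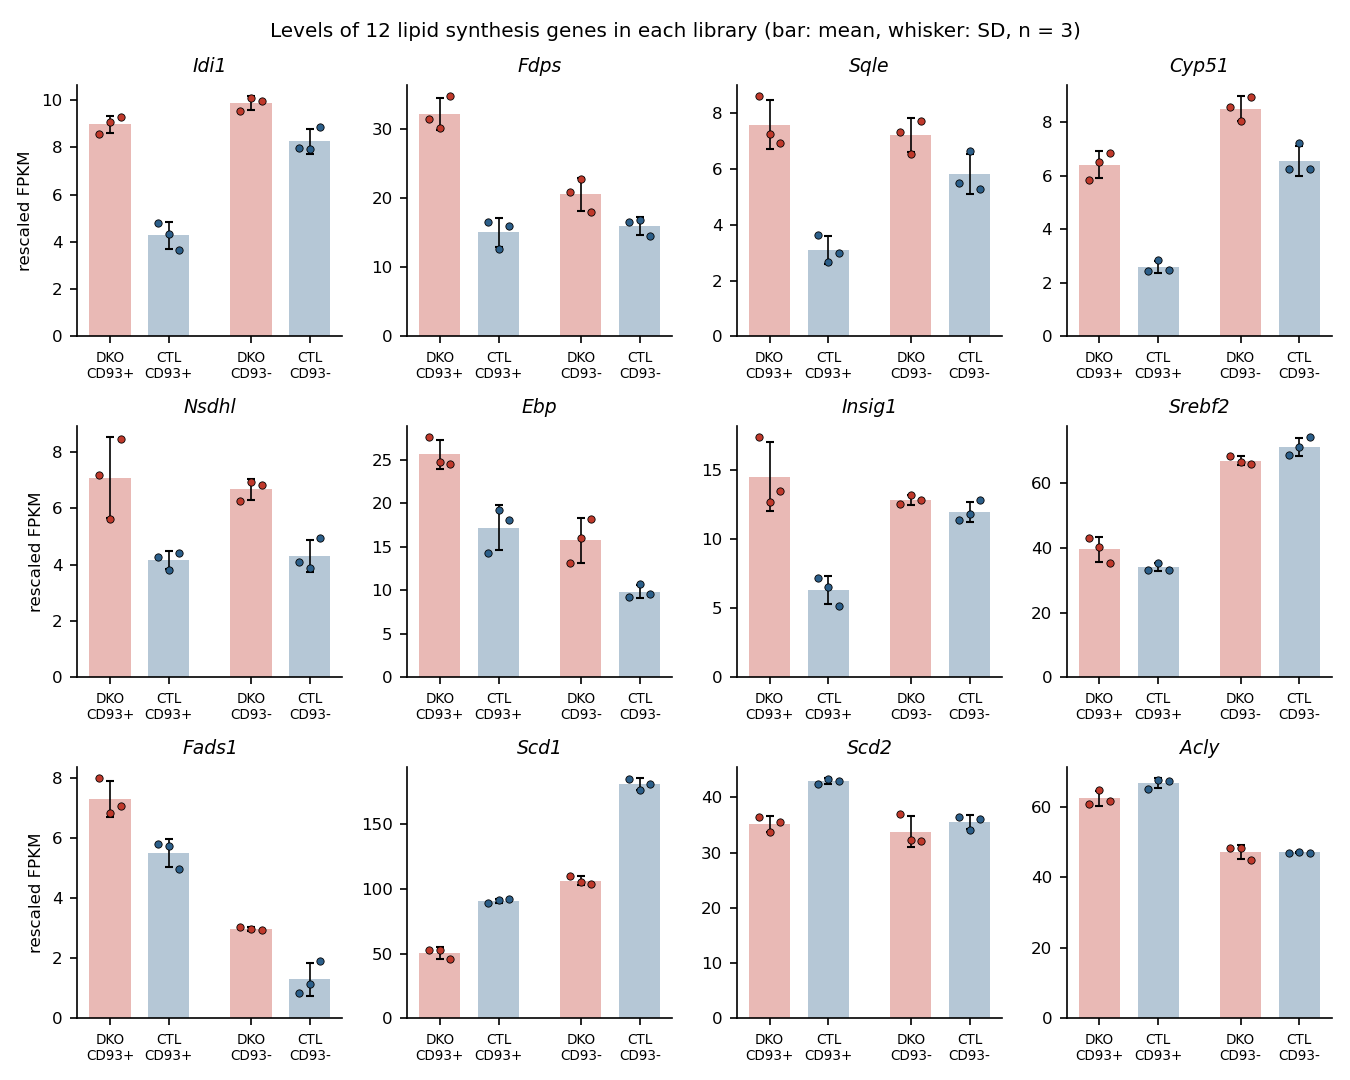
Rescaled FPKM of 12 of the genes in each library of DKO and CTL, CD93-positive and CD93-negative B cells. Points are libraries, bars are means and whiskers SD (n = 3). The 2 populations come from tables scaled separately. Idi1, Fdps, Sqle, Cyp51 and Insig1 are higher in all 3 DKO than in all 3 CTL CD93-positive libraries, and Scd1 is lower in all DKO libraries of both populations.

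Insig1, which retains SREBP in the endoplasmic reticulum and is itself a known SREBP target, had the largest log2 change of the 29 genes in CD93-positive cells. It was at 17.3, 12.7 and 13.4 FPKM in DKO and at 7.18, 6.55 and 5.16 FPKM in CTL libraries. The highest DKO library was replicate 1, the lowest CTL library replicate 3, and the groups did not overlap. The log2 change was 1.08 (SE 0.15, limma adjusted p = 0.006704), with an interval of 0.72 to 1.45. Against CTL replicate 3 alone, the CTL library with high Xist, the 3 DKO libraries gave 1.31. Srebf2, the SREBP of sterol genes, was at 42.96, 40.1 and 35.3 FPKM in DKO and 33.2, 35.3 and 33.2 FPKM in CTL libraries. All DKO values were above all CTL values, though DKO replicate 3 and CTL replicate 2 nearly met, and the change was not called (log2 change 0.21, limma adjusted p = 0.128). Srebf1, the SREBP mainly of fatty acid genes, was at 23.2, 19.4 and 18.6 FPKM in DKO and 18.97, 19.8 and 18.4 FPKM in CTL libraries, which overlapped. Stard4, a carrier of cholesterol between membranes, was at 4.12, 4.89 and 5.13 FPKM in DKO and 3.799, 3.08 and 2.95 FPKM in CTL libraries. It did not overlap and did not pass (log2 change 0.42, limma adjusted p = 0.0619).

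Fatty acid synthesis in CD93-positive cells had 0 of 9 genes higher and 2 lower, with a median log2 change of 0.05. Scd1, a desaturase that makes monounsaturated fatty acids, was at 53.1, 52.6 and 45.4 FPKM in DKO and at 88.9, 91.3 and 91.9 FPKM in CTL libraries. The CTL libraries lay within a narrow band, and the lowest of them was far above the highest DKO library. Its log2 change was -0.84 (SE 0.08, limma adjusted p = 0.00158). Its relative Scd2 was at 36.4, 33.7 and 35.6 FPKM in DKO and at 42.4, 43.4 and 42.98 FPKM in CTL libraries, lower without overlap but by less (log2 change -0.28, limma adjusted p = 0.0223). The call of Scd2 was lost without DKO replicate 2 or 3 or CTL replicate 1 or 2, at an adjusted p of 0.0575 to 0.0831. Scd1 and Scd2 are close copies, as are Acat2 and Acat3 and Idi1 and Idi2. How reads shared by such copies were assigned is not given in the sources used here, so these levels are uncertain to that extent.

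The core enzymes of chain synthesis were not called. Acly, which makes cytosolic acetyl-CoA from citrate, was at 60.8, 64.6 and 61.7 FPKM in DKO and at 64.98, 67.5 and 67.3 FPKM in CTL libraries, a non-overlapping difference of -0.09 on the log2 scale (limma adjusted p = 0.278). Acaca, acetyl-CoA carboxylase, averaged 4.72 ± 0.475 in DKO and 4.02 ± 0.355 FPKM in CTL, and Fasn, fatty acid synthase, 13.01 ± 1.57 and 11.4 ± 0.903 FPKM. Both overlapped between groups. The elongases Elovl5 and Elovl6 averaged 21.6 ± 0.532 and 4.81 ± 0.883 FPKM in DKO and 23.02 ± 2.297 and 4.57 ± 0.119 FPKM in CTL libraries. Of the desaturases of polyunsaturated fatty acids, Fads1 was at 7.99, 6.85 and 7.06 FPKM in DKO and 5.81, 5.73 and 4.99 FPKM in CTL libraries, without overlap (log2 change 0.35, limma adjusted p = 0.0545). Fads2 averaged 7.61 ± 0.6301 in DKO and 6.86 ± 0.986 FPKM in CTL, with overlap.

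Of the 29 genes, those called higher in DKO CD93-negative B cells were again mainly of cholesterol synthesis, at a share nearer that of all genes. Log2 changes were smaller than in CD93-positive cells for Idi1, Fdps, Cyp51 and Nsdhl but not for Ebp and Pmvk. Scd1 was again lower. Ebp and Nsdhl were 1.597 and 1.55 times as high by the ratio of the means, Pmvk, Fdps and Cyp51 between 1.28 and 1.296 times, and Idi1 1.196 times. Fads1 was 2.29 times as high, from a low level. Scd1 was at 0.588 of its CTL level. By limma over 10960 genes, 7 of 29 were higher, 24.1%, where 17.1% of all genes were called higher. Only Scd1 was lower, 3.45%, where 23.8% of all genes were. Without overlap between the groups, 8 of the 29 were higher, against 21.4% of all genes, and 2 lower, against 33.3%. The median log2 change was 0.09 over the 29 genes and -0.08 over all genes, and 19 of the 29 were above 0, against 40.2% of all genes.

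The authors' scaling moved the values of the whole table. Of all genes, 18.7% were called higher and 2.79% lower with that scaling, so higher calls were 87.0% of calls, against 41.7% after rescaling. It called 8 of the 29 higher, with Acat2 added (log2 change 0.41, limma adjusted p = 0.0482), and 1 lower. The median log2 change was 0.29 over the 29 genes and 0.11 over all genes. Leaving out DKO replicate 1, 2 or 3 brought the count of higher genes to 4 of the 29 each time, a share near that of all genes tested. Without DKO replicate 2, for example, 1309 of all 10711 genes tested were higher. Nsdhl, Ebp, Fads1 and Scd1 kept their calls without any single library.

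Pmvk, Idi1 and Fdps rose among the 7 mevalonate genes of CD93-negative cells, and 0 fell, with a median log2 change of 0.23. Pmvk was at 21.4, 21.9 and 24.2 FPKM in DKO and 18.5, 19.1 and 15.04 FPKM in CTL libraries. Idi1 was at 9.55, 10.1 and 9.97 FPKM in DKO and 7.98, 7.92 and 8.86 FPKM in CTL libraries. Fdps was at 20.8, 22.9 and 18.005 FPKM in DKO and 16.6, 16.8 and 14.5 FPKM in CTL libraries. The groups did not overlap in any of the 3, though the gap between the nearest libraries was smaller than the wider of the ranges within a group in each. Log2 changes were 0.34 for Pmvk, 0.23 for Idi1 and 0.34 for Fdps, with limma adjusted p of 0.0282, 0.03302 and 0.0302 in that order. Each of these calls was lost on leaving out some single library, with adjusted p up to 0.0863 for Pmvk (DKO replicate 2 or 3), 0.0987 for Idi1 (any but CTL replicate 3) and 0.0834 for Fdps (DKO replicate 1 or 2 or CTL replicate 3). Acat2, Hmgcs1, Mvk and Mvd were not called and overlapped. Hmgcs1 averaged 6.87 ± 0.188 in DKO and 7.62 ± 0.793 FPKM in CTL.

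Of the 9 sterol genes in CD93-negative cells, Cyp51, Nsdhl and Ebp rose and 0 fell, with a median log2 change of 0.14. Ebp was at 13.1, 15.95 and 18.2 FPKM in DKO and at 9.27, 10.7 and 9.58 FPKM in CTL libraries (log2 change 0.62, SE 0.12, limma adjusted p = 0.00674). Nsdhl was at 6.24, 6.93 and 6.82 FPKM in DKO and at 4.095, 3.87 and 4.93 FPKM in CTL libraries (log2 change 0.54, SE 0.10, limma adjusted p = 0.00557). All 6 libraries of this population were of the male type by Ddx3y. The part of sex in the CD93-positive changes of these X-linked genes cannot be read from this and was not tested across populations. Cyp51 was at 8.56, 8.03 and 8.93 FPKM in DKO and at 6.25, 7.21 and 6.24 FPKM in CTL libraries (log2 change 0.33, limma adjusted p = 0.0174). Its call was lost without DKO replicate 1 or 3 or CTL replicate 3 (adjusted p = 0.0509 to 0.0614). In all 3 genes every DKO library was above every CTL library.

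Sqle, which had risen in CD93-positive cells, was at 7.34, 6.54 and 7.74 FPKM in DKO and 5.503, 6.65 and 5.301 FPKM in CTL CD93-negative libraries. DKO replicate 2 lay just under CTL replicate 2, and the change was not called (log2 change 0.27, limma adjusted p = 0.0736). It passed without CTL replicate 2, with a log2 change of 0.36 and an adjusted p of 0.0346. Fdft1, Lss, Tm7sf2, Hsd17b7 and Dhcr7 overlapped between groups, with log2 changes between -0.31 for Tm7sf2 and 0.14 for Dhcr7.

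None of the 3 regulators was called in CD93-negative cells. Insig1 was at 12.5, 13.2 and 12.8 FPKM in DKO and at 11.4, 11.8 and 12.8 FPKM in CTL libraries, where CTL replicate 3 lay within the DKO range (log2 change 0.09, 95% interval -0.06 to 0.24). The interval in CD93-positive cells was 0.72 to 1.45 under the rescaling used here, and the difference between populations was not tested. With the authors' scaling the log2 change of Insig1 was 0.87 in CD93-positive and 0.30 in CD93-negative cells (limma adjusted p = 0.222 and 0.168). Srebf2 was at 68.5, 66.4 and 65.8 FPKM in DKO and at 68.5, 70.96 and 74.02 FPKM in CTL libraries. All 3 DKO libraries were under all 3 CTL libraries, though DKO replicate 1 and CTL replicate 1 nearly met, and the change was not called (log2 change -0.09, limma adjusted p = 0.156). Srebf1 was at 20.8, 23.002 and 20.1 FPKM in DKO and 19.8, 22.4 and 20.6 FPKM in CTL libraries, overlapping. Stard4 was at 5.25, 5.28 and 5.34 FPKM in DKO and 5.12, 4.73 and 4.66 FPKM in CTL libraries, not overlapping and not called (log2 change 0.11, limma adjusted p = 0.272).

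Scd1 was the most abundant of the 29 genes in CD93-negative cells, and the one with the smallest p. It was at 109.8, 106 and 103 FPKM in DKO and at 185, 176 and 181 FPKM in CTL libraries. Both groups were tight and wide apart. The log2 change was -0.76 (SE 0.04, limma adjusted p = 4.64e-05), and 6.96% of all genes changed by more. Scd2 was at 37.1, 32.3 and 32.04 FPKM in DKO and 36.4, 34.2 and 36.1 FPKM in CTL libraries, overlapping and not called. Fads1 was at 3.03, 2.97 and 2.93 FPKM in DKO and 0.845, 1.16 and 1.91 FPKM in CTL libraries (log2 change 0.81, SE 0.17, limma adjusted p = 0.00929). The DKO libraries were near one another, and the CTL libraries spread over a range of more than 1 FPKM below them. Acly, Acaca, Fasn, Elovl5, Elovl6 and Fads2 were not called and overlapped. Acly averaged 47.1 ± 1.99 in DKO and 47.02 ± 0.194 FPKM in CTL libraries, and Fasn 17.1 ± 0.909 and 17.2 ± 0.398 FPKM, with 95% intervals of the log2 change of -0.11 to 0.11 for Acly and -0.14 to 0.13 for Fasn.

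**Figure D3:**
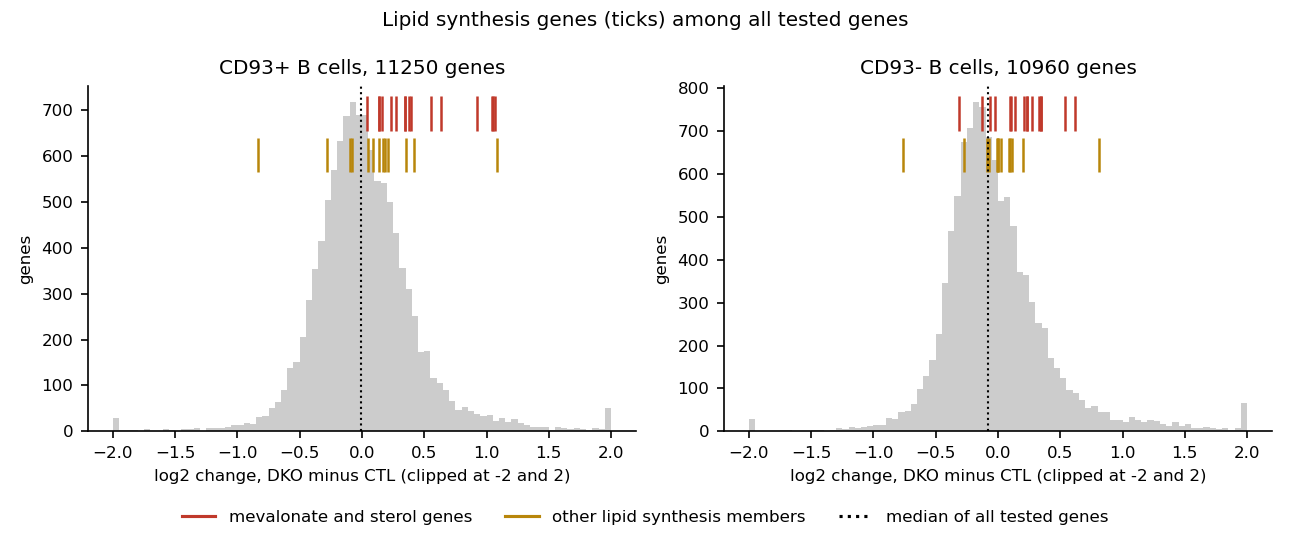
Distribution of the log2 change, DKO minus CTL, of all tested genes (grey, number of genes on the vertical axis) in CD93-positive (left, 11250 genes) and CD93-negative (right, 10960 genes) B cells. Red ticks are the 16 mevalonate and sterol genes, yellow ticks the other 13 genes, and the dotted line is the median of all tested genes, -0.01 and -0.08. All red ticks lie above the median in CD93-positive cells, from 0.04 for Hsd17b7 to 1.07 for Sqle.

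Set side by side, the comparisons shared no library. Idi1, Fdps, Cyp51, Nsdhl and Ebp were called higher in both populations, 5 of 29, where 7.33% of the 10446 genes tested in both were. Scd1 was the 1 gene called lower in both, where 6.55% of all genes were. Acat2, Sqle, Insig1 and Scd2 were called in CD93-positive cells alone and Pmvk and Fads1 in CD93-negative cells alone, though the difference was tested for none. No gene was called in opposite directions, and 17 were called in neither. The sign of the change was the same in both for 21 of 29 genes, and for 71.5% of all genes.

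Ratios of 2 genes within a library do not depend on its scaling, and were taken for pairs picked after their values had been seen. Their separation was thus partly given by the choice and is no further evidence for the changes above. How often ratios of other genes separate was not computed. Fdps over Acly was 0.518, 0.468 and 0.564 in DKO and 0.255, 0.188 and 0.237 in CTL CD93-positive libraries, and 0.432, 0.473 and 0.402 in DKO and 0.353, 0.357 and 0.3095 in CTL CD93-negative libraries. Insig1 over Srebf2 was 0.403, 0.317 and 0.3804 in DKO and 0.216, 0.185 and 0.155 in CTL CD93-positive libraries. In both ratios each DKO library, replicate 3 included, was above each CTL library. In CD93-negative cells Insig1 over Srebf2 averaged 0.192 ± 0.00821 in DKO and 0.168 ± 0.00398 in CTL, also without overlap. Cyp51 over Srebf2 averaged 0.164 ± 0.0286 in DKO and 0.0764 ± 0.00421 in CTL CD93-positive libraries (SD, n = 3 each), and 0.127 ± 0.00769 and 0.0923 ± 0.00875 in DKO and CTL CD93-negative libraries. Scd1 over Scd2 averaged 1.43 ± 0.144 in DKO and 2.11 ± 0.0227 in CTL CD93-positive libraries, and 3.15 ± 0.168 and 5.08 ± 0.0795 in DKO and CTL CD93-negative libraries. Unlike these, Fads1 over Fads2 overlapped between the groups in both populations.

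**Figure D4:**
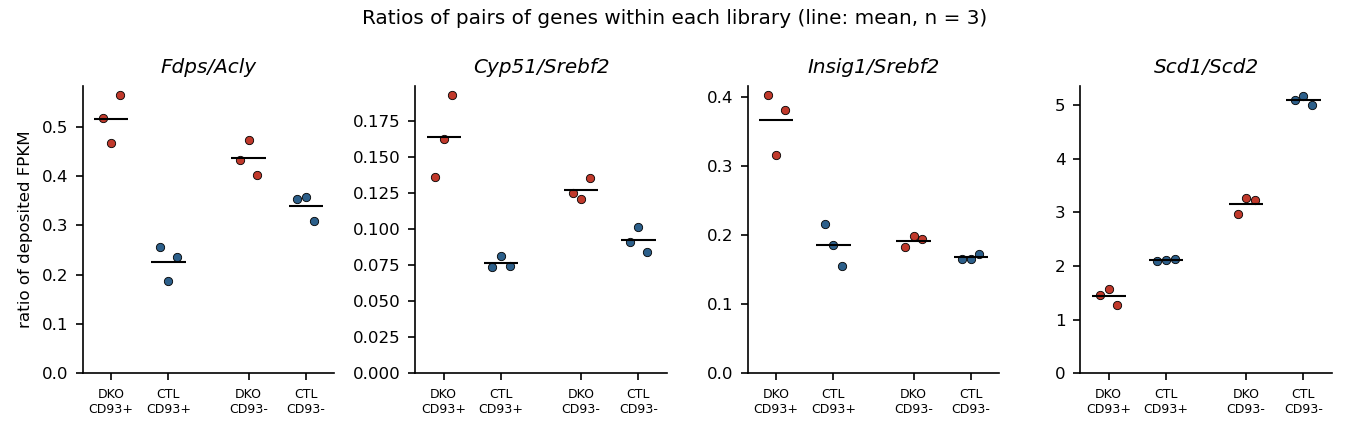
Ratio of the deposited FPKM of 2 genes within each library, for 4 pairs, in DKO and CTL libraries of CD93-positive and CD93-negative B cells. Points are libraries and lines are means (n = 3). In every panel and population the DKO and CTL points do not overlap, with DKO higher for Fdps/Acly, Cyp51/Srebf2 and Insig1/Srebf2 and lower for Scd1/Scd2. The pairs were picked after their values had been seen. A further pair, Fads1/Fads2, overlapped in both populations and is not shown.

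Per length, the order of the 29 genes was led by the same few. In CD93-positive cells the highest in DKO were Acly at 62.4 ± 2.03, Scd1 at 50.4 ± 4.29 and Srebf2 at 39.5 ± 3.85 FPKM, and the highest in CTL were Scd1 at 90.7 ± 1.61, Acly at 66.6 ± 1.403 and Scd2 at 42.9 ± 0.5003 FPKM. Scd1 thus stood under Acly in every DKO library and above it in every CTL library. In CD93-negative cells Scd1 led in both groups, followed by Srebf2 and Acly. At the low end, Hsd17b7 averaged 1.79 ± 0.246 in DKO and 1.701 ± 0.163 FPKM in CTL CD93-positive cells, and Elovl6 1.06 ± 0.263 and 1.48 ± 0.326 FPKM in CD93-negative cells. The coefficient of variation over a group's 3 libraries had a median over the 29 genes of 10.1% in DKO and 9.20% in CTL CD93-positive cells, and of 6.84% and 9.60% in DKO and CTL CD93-negative cells. Fads2 in DKO CD93-negative libraries varied most, at 50.4%.

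Among 9 further sterol synthesis genes tested, 3 were higher and 0 lower in DKO CD93-positive cells, where 11.4% and 9.34% of all genes were. Sc4mol, the methyl oxidase that works with Nsdhl and Hsd17b7, was at 8.34, 8.35 and 8.75 FPKM in DKO and 5.54, 3.97 and 3.86 FPKM in CTL libraries (log2 change 0.81, limma adjusted p = 0.01103). Its DKO and CTL libraries did not overlap. In CD93-negative cells 0 of the 9 were higher and 1 was lower, Cyb5r3, a cytochrome reductase, with a log2 change of -0.22. Of all genes, 17.1% were called higher and 23.8% lower there. With the authors' scaling the counts were 0 and 0 in CD93-positive and 1 and 0 in CD93-negative cells. With sex as a covariate 2 were higher and 0 lower in CD93-positive cells, where 398 and 172 of all 11250 genes tested were.

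Genes of sterol sensing, uptake, efflux and storage had 2 of 17 higher and 4 lower in CD93-positive cells, and 1 of 16 higher and 5 lower in CD93-negative cells. For this list and those that follow, the shares of all genes called were 11.4% higher and 9.34% lower in CD93-positive cells, and 17.1% and 23.8% in CD93-negative cells. Abca1, the transporter that exports cholesterol, was at 4.62, 4.12 and 3.95 FPKM in DKO and 7.34, 9.01 and 6.53 FPKM in CTL CD93-positive libraries (log2 change -0.71, limma adjusted p = 0.0147). It was at 11.8, 10.9 and 10.8 FPKM in DKO and 20.9, 21.3 and 21.8 FPKM in CTL CD93-negative libraries (log2 change -0.87, limma adjusted p = 7.80e-05). In both populations every DKO library was under every CTL library. Mylip, a ligase that marks lipoprotein receptors for degradation, averaged 34.8 ± 3.08 in DKO and 66.999 ± 3.98 FPKM in CTL CD93-positive libraries (limma adjusted p = 0.00169). Abca1 and Mylip are both known targets of the sterol-sensing LXR receptors. In CD93-negative cells Npc2, which carries cholesterol in lysosomes, averaged 33.04 ± 3.19 in DKO and 17.6 ± 0.306 FPKM in CTL libraries (limma adjusted p = 0.000235). The authors' scaling left 1 higher and 0 lower in CD93-positive and 1 and 1 in CD93-negative cells, where Abca1 was the lower one (log2 change -0.66, limma adjusted p = 0.00454). With sex as a covariate 0 were higher and 1, Mylip, was lower in CD93-positive cells, and Abca1 lost its call there (log2 change -0.53, limma adjusted p = 0.1297).

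Further genes of fatty acid synthesis had 3 of 17 higher and 1 lower in CD93-positive and 4 and 3 of 17 in CD93-negative cells. Acsl5, an acyl-CoA synthetase, was higher in both, averaging 41.6 ± 0.743 in DKO and 29.5 ± 2.23 FPKM in CTL CD93-positive and 33.96 ± 1.86 in DKO and 23.8 ± 1.45 FPKM in CTL CD93-negative libraries. Mecr, of mitochondrial fatty acid synthesis, was higher in CD93-positive cells (log2 change 0.52) and Slc25a1, the citrate carrier, in CD93-negative cells (0.41). Mlxip, a glucose-sensing transcription factor, was lower in CD93-positive cells (-0.42) and Acsl3 in CD93-negative cells (-0.42). Glycerolipid synthesis had 1 of 22 higher, Agpat5 (0.53), and 2 lower, Chkb (-0.46) and Gpam (-0.42), in CD93-positive cells, and 2 of 21 higher and 7 lower in CD93-negative cells, among them Agpat4 (0.50), Agpat2 (-0.83) and Cept1 (-0.61). Neither list had a gene called lower in CD93-negative cells with the authors' scaling, and 4 of the 17 and 3 of the 21 were higher. Acsl3, Agpat2 and Cept1 were then at limma adjusted p of 0.236, 0.0552 and 0.0506. With sex as a covariate the CD93-positive counts were 0 and 0 for further fatty acid synthesis and 2 higher and 0 lower for glycerolipid synthesis, where Agpat5, Chkb and Gpam lost their calls.

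Side branches of the isoprenoid route had 2 of 15 genes higher and 0 lower in CD93-positive cells. These were Dhdds and Nus1, the subunits of the enzyme that starts dolichol. Dhdds averaged 18.8 ± 1.16 in DKO and 12.2 ± 0.252 FPKM in CTL CD93-positive libraries (log2 change 0.58, limma adjusted p = 0.00475), and Nus1 11.9 ± 0.419 and 9.47 ± 0.473 FPKM (0.30, 0.03697). In CD93-negative cells 1 of 15 was higher, Dhdds (0.34), and 2 were lower, Rabggta (-0.44) and Icmt (-0.17). Fatty acid oxidation had 2 of 19 genes higher, Eci1 (0.40) and Etfa (0.24), and 1 lower in CD93-positive cells. The lower one was Cpt1a, the gate of fatty acids into mitochondria, at 21.2, 20.9 and 21.7 FPKM in DKO and 34.4, 35.4 and 41.95 FPKM in CTL libraries. In CD93-negative cells 2 of 19 were higher, Etfa (0.31) and Hadhb (0.30), and 2 lower, with Acaa2 at -0.39. With the authors' scaling, side branches and fatty acid oxidation had 2 and 3 genes higher and 0 lower in CD93-negative cells. Icmt changed sign, to a log2 change of 0.042, and Rabggta and Acaa2 lost their calls (limma adjusted p = 0.371 and 0.445). With that scaling further fatty acid synthesis, glycerolipid synthesis, side branches and fatty acid oxidation had 0 genes called in CD93-positive cells. With sex as a covariate Dhdds and Cpt1a kept their calls there, and Nus1, Eci1 and Etfa lost theirs (limma adjusted p = 0.247, 0.233 and 0.295).

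Genes of cycling cells and of plasma cells were also higher in DKO libraries. Their part in the results above was not tested, and in bulk libraries fewer cells of a type cannot be told apart from less RNA per cell. Of 20 proliferation genes, 7 were higher and 0 lower in CD93-positive cells, with a summed level of 1554 to 1832 FPKM in DKO and 1352 to 1479 FPKM in CTL libraries, and 0 were called with the authors' scaling and 1 was higher with sex as a covariate. In CD93-negative cells 19 of 20 were higher, with a sum of 545 to 567 FPKM in DKO and 243 to 269 FPKM in CTL libraries. Mki67, for example, averaged 31.2 ± 1.596 in DKO and 6.65 ± 0.934 FPKM in CTL. Of 6 plasma cell markers, 4 were higher and 1 lower in CD93-positive cells, with a sum of 1252 to 1623 FPKM in DKO and 218 to 255 FPKM in CTL libraries. In CD93-negative cells 4 of 6 were higher, with 378 to 402 FPKM in DKO and 124 to 142 FPKM in CTL libraries. Xbp1, a transcription factor of secretory cells, averaged 167 ± 17.7 in DKO and 37.2 ± 5.88 FPKM in CTL CD93-positive libraries. Plasma cell markers in CD93-positive cells were 3 higher and 0 lower with the authors' scaling and 4 and 0 with sex as a covariate.

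Of 8 B cell markers, 5 were lower in CD93-positive and 4 in CD93-negative DKO cells, and 0 were higher in either. With the authors' scaling 1 was lower in each population, and with sex as a covariate 2 were lower in CD93-positive cells. Neutrophil markers had 5 of 7 lower in CD93-positive cells, with a sum of 742 to 1209 FPKM in DKO and 1593 to 2023 FPKM in CTL libraries, and 0 of 3 called in CD93-negative cells. In CD93-positive cells 1 neutrophil marker was lower with the authors' scaling and 0 with sex as a covariate. Red cell markers summed to 5503 to 14064 FPKM in DKO and 12881 to 58399 FPKM in CTL CD93-positive libraries, with 0 of 7 called. In CD93-negative cells they summed to 160.0 to 184 FPKM in DKO and 43.1 to 58.4 FPKM in CTL libraries, with 2 of 6 higher. Under the authors' scaling 6 of the 7 red cell markers were lower in CD93-positive cells and 4 of the 6 higher in CD93-negative cells. T cell markers had 1 of 8 higher in CD93-positive and 5 of 8 in CD93-negative cells, macrophage markers 0 of 8 and 2 of 3, and NK cell markers 1 of 5 and 0 of 6, with none lower. With sex as a covariate 0 genes of these 3 lists were called in CD93-positive cells. No marker of these lists was at 0 in all libraries of a population. The part of these markers in the results was not tested.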

How the data were processed

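RNA had been isolated with an RNeasy micro kit and libraries made with a strand-specific SureSelect kit, per the labels' protocols. Bowtie2 2.1.0, TopHat2 2.0.8, Cufflinks 2.1.1 and build mm9 are listed per the submitters' processing notes, and the annotation, the use of strand in counting and the handling of shared reads are not given in the sources used here. The authors deposited FPKM values per gene and library, named by symbol, in tables of 23234 names, of which 25 had taken the form of dates. Of 24 samples, 12 had a column, and the other 12, further sorts of CD93-negative cells, were not analysed here, so the comparisons planned for them were not run. Tests were kept within a table, as the tables were scaled separately, and the difference between populations was not tested. A further 6 columns repeated used ones and were not used.

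Within a table, libraries were rescaled so that tested genes had equal upper quartiles. A gene entered the test if 3 of the 6 libraries had 1 FPKM or more. The test was limma 3.58.1 under R 4.3.3 on log2(FPKM + 1) (lmFit, eBayes with trend, genotype only, two-sided, Benjamini-Hochberg adjustment over all genes tested, threshold 0.05), and the code was tested on simulated data. Depth is unknown for FPKM, so no counting intervals are given, and the precision rests on 3 libraries a group. Pearson's r of the libraries of a group, across genes, was 0.935 to 0.976. With the authors' scaling the CD93-positive fit gave all genes of like level the same spread. The genes, the lists and the scaling were chosen with earlier results of these data known. All 29 genes are named, and from each other list up to 3 called genes with the largest change in a comparison. Some genes that met this rule are not reported here. Motifs were searched on both strands of RefSeq promoter windows. Alternatives were the authors' scaling, quantile normalization, a pseudocount of 0.1 or 5, a filter at 5 FPKM or none, no trend, array quality weights, a replicate block, each library left out and sex as a covariate, and, added after the data had been seen, the libraries with Xist above Ddx3y only. The titles number replicates alike in DKO and CTL, but the labels do not say that same-numbered libraries were paired. Their deviations correlated between -0.113 and 0.168.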

Additional observations from a re-analysis of the deposited data

Results flagged for a closer look

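The DKO and CTL values of Srebf2 nearly met in both populations, and the sign of the change was opposite. Groups did not overlap, with DKO higher, for 20.9% of all genes in CD93-positive cells. In CD93-negative cells they did not overlap, with DKO lower, for 33.3%. In CD93-positive cells all 3 DKO libraries, 42.96, 40.1 and 35.341 FPKM, were above all 3 CTL libraries, 33.2, 35.325 and 33.2 FPKM, with a log2 change of 0.21. In CD93-negative cells all 3 DKO libraries, 68.463, 66.4 and 65.8 FPKM, were below all 3 CTL libraries, 68.55, 70.96 and 74.02 FPKM, with a log2 change of -0.088. Neither change passed limma's adjusted p of 0.05, and the difference between the populations was not tested. With the authors' scaling both signs turned, to -0.029 in CD93-positive and 0.13 in CD93-negative cells.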

How the results depend on the processing

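Of 485 values of the 29 genes under alternatives in CD93-positive cells, 420 kept their direction and their side of the threshold, 44 lost the call, 3 gained one and 18 changed sign. In CD93-negative cells these numbers were 380, 19, 3 and 26 of 428. None of the 29 genes that was called changed sign, and the cause of the changes was not tested. In CD93-positive cells the authors' scaling gave 188 genes higher and 173 lower, and 0 and 0 of the 29. Sex as a covariate, where the change rests on CTL replicate 3 alone among the CTL libraries, gave 398 and 172, and 5 and 1 of the 29. The libraries with high Xist gave 142 and 21, and 1 and 0 of the 29. No filter gave 587 of 22381 genes lower. Leaving out 1 library gave 579 to 1195 genes higher and 283 to 936 lower, and 5 to 8 and 1 to 2 of the 29. In CD93-negative cells the authors' scaling gave 306 genes lower, and no filter gave 4 of the 29 higher. Leaving out 1 library gave 1309 to 1770 genes higher and 1857 to 2284 lower, and 4 to 7 and 1 of the 29. Same-numbered libraries are not paired by the labels. Their deviations correlated at 0.168, -0.093 and -0.113 in CD93-positive and 0.018, -0.111 and -0.088 in CD93-negative cells. Not every library correlated best with its own number. With 3 libraries a group, these values cannot settle whether libraries were paired. With the replicate block 541 genes were higher and 357 lower in CD93-positive cells, 5 and 1 of the 29, and 4 of the 29 were higher in CD93-negative cells. Genes not called that changed sign in CD93-positive cells were, by log2 change with the authors' scaling, Hmgcs1 (-0.056), Hsd17b7 (-0.088), Dhcr7 (-0.068), Srebf1 (-0.14), Srebf2 (-0.029), Acaca (-0.0027), Fasn (-0.051), Elovl6 (-0.15) and Fads2 (-0.071), with quantile normalization Hsd17b7 (-0.026), with sex as a covariate Tm7sf2 (-0.058), Hsd17b7 (-0.0077) and Dhcr7 (-0.068) and in the libraries with high Xist Tm7sf2 (-0.062), Hsd17b7 (-0.012) and Dhcr7 (-0.074). In CD93-negative cells they were Hmgcs1 (0.069), Lss (0.16), Hsd17b7 (0.085), Srebf2 (0.13), Fasn (0.21), Scd2 (0.14) and Elovl5 (0.21) with the authors' scaling and Lss (0.026), Acly (-0.032), Fasn (0.019) and Elovl5 (0.020) with quantile normalization. Values crossed 0 on leaving out single libraries for Hsd17b7 (-0.0053 to 0.12) and Elovl6 (-0.056 to 0.17) in CD93-positive and for Mvk (-0.0076 to 0.19), Lss (-0.075 to 0.060), Srebf1 (-0.030 to 0.071), Acly (-0.016 to 0.038), Acaca (-0.014 to 0.16), Fasn (-0.026 to 0.038), Elovl5 (-0.067 to 0.066) and Fads2 (-0.041 to 0.48) in CD93-negative cells. Sex could not be a covariate in CD93-negative cells, where all 6 libraries were alike.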
